A study of Mus musculus with 21 samples.

Results

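The genes described here are 10 genes of the NF-kB pathway, the inflammasome and endothelial adhesion. They are the NF-kB subunits Nfkb1, Nfkb2, Rela and Relb, the pathway inhibitors Nfkbia and Tnfaip3, the inflammasome genes Nlrp3 and Casp1, and the adhesion receptors Icam1 and Vcam1. They were taken by mouse symbol from a count table of 55416 gene IDs, and all 10 were among the 19854 genes with enough counts to be tested.

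RNA came from brains of mice at postnatal day 57 in a model of cerebral cavernous malformation, a disease of leaky, enlarged brain vessels. All animals carried floxed Pdcd10 (Pdcd10 fl/fl) and the transgene Aldh1l1-EGFP/Rpl10a, which puts a tagged ribosomal protein into astrocytes. The texts of the series disagree on whether the RNA was taken from whole brain or from tagged ribosomes purified from astrocytes. The knockout (KO) animals also carried Slco1c1-iCreERT2, an inducible recombinase driven by a promoter of brain endothelium, and received 50 µg of 4-hydroxytamoxifen into the stomach on postnatal day 1. The controls, called Flox in the labels, lacked the recombinase by their genotype label. The series' design text also names uninjected animals with the recombinase as controls without saying which samples they were, so genotype and injection cannot be told apart. The 4 groups were KO in normoxia (21% oxygen, 4 libraries), control in normoxia (4 libraries), KO in hypoxia (12% oxygen for 7 days, 7 libraries) and control in hypoxia (4 libraries, numbered 3 to 6). Nothing in the labels says that the libraries came from separate animals, so each p-value is measured against a spread between libraries that may be technical.

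NF-kB is a family of dimeric transcription factors built from the proteins of Rela, Relb, Rel, Nfkb1 and Nfkb2. In resting cells inhibitors hold the dimers in the cytoplasm. Cytokine and pattern-recognition receptors activate a kinase complex that marks the inhibitor encoded by Nfkbia for degradation, and the freed dimers enter the nucleus and switch on target genes. Nfkbia and Tnfaip3 are themselves such targets, as are Icam1, Vcam1 and Nlrp3. The level of an mRNA says nothing directly of where the NF-kB proteins are in the cell.

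Of the 10 genes, 7 had a promoter window (250 bases before to 50 after a transcription start) in the RefSeq set for build GRCm38.p6, with 11 windows in all. The windows of the 3 genes below are shown because these genes differed between KO and control libraries in hypoxia and each window holds the 9-letter kB core GGAATTTCC or its reverse complement. Capitals mark matches to that core and to the 10-letter kB consensus, both searched on both strands.
Icam1, chr9:21015690-21015989 (+): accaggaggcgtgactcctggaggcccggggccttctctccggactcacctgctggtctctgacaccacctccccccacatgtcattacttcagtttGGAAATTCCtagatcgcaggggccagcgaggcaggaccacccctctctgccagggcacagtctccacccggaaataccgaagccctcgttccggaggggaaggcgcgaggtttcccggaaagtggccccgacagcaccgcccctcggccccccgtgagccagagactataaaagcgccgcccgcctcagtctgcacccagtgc
Tnfaip3, chr10:19015361-19015660 (-): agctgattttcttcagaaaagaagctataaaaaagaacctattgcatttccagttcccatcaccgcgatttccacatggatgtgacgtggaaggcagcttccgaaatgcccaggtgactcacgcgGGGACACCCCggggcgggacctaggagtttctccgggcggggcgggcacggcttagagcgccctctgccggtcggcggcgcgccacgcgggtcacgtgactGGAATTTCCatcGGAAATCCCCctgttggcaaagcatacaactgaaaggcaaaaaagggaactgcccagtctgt
Nfkbia, chr12:55492598-55492897 (-): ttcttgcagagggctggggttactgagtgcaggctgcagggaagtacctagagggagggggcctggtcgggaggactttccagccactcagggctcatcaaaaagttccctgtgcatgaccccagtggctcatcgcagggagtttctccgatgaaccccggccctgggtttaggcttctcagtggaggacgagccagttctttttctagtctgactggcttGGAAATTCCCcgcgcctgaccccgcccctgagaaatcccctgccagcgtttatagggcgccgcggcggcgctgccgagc

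In Icam1 the core match starts 153 bases before the transcription start. In Tnfaip3 a core match starts 24 bases before it, and consensus matches start 125 and 12 bases before it. In Nfkbia a consensus match and a core match overlap and both start 29 bases before the transcription start. Over the 11 windows, the core was found in 3, those shown, and the consensus in 6, which belong to Nfkb2 (3 windows), Nfkbia, Nlrp3 and Tnfaip3. Of all 32851 promoter windows of the same length, 0.317% held the core and 8.46% the consensus. Neither motif was found in the windows of Casp1 and Rela. A match is a description of letters and not a binding site, and binding was not measured here.

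The deposited counts were divided by TMM-scaled library sizes to give CPM, and totals ranged from 45399320 to 65261791 counts per library. Pdcd10 itself was lower in every KO library, with 8.81 ± 1.17 CPM in KO against 21.9 ± 1.8 CPM in controls in normoxia (SD, n = 4 each), and 9.55 ± 1.79 CPM in KO (n = 7) against 27 ± 2.85 CPM in controls (n = 4) in hypoxia. The log2 fold change of Pdcd10 in normoxia was -1.32 ± 0.14 (SE, edgeR adjusted p = 4.08e-05), and in hypoxia -1.50 ± 0.12 (edgeR adjusted p = 1.02e-06). All 8 astrocyte markers were detected, with a summed level of 25701 to 44045 CPM, while 9 microglial markers summed to 43.9 to 139 CPM and 8 endothelial markers to 13 to 113 CPM. KO hypoxia libraries 1, 2 and 3 stood apart: their mitochondrially encoded RNA summed to 395 to 649 CPM, against 29.2 to 58.2 CPM in KO hypoxia libraries 4 to 7, and their astrocyte markers to 25701 to 29009 CPM, against 32445 to 39065 CPM. Their neuronal markers summed to 3038 to 4083 CPM, against 1079 to 2435 CPM, and their oligodendrocyte markers to 1158 to 1512 CPM, against 809 to 1075 CPM. Their erythroid markers summed to 75.6 to 132 CPM, against 25.9 to 75 CPM. Microglial and endothelial sums overlapped between the same sets of libraries. Where a gene called and named here lost its call without these 3 libraries, or the count of a list changed in hypoxia, both values are given. In 5 libraries (control normoxia 3 and 4, KO hypoxia 6 and 7, control hypoxia 6) the Y-linked gene Ddx3y was under 10 CPM although all samples carry the tag male.

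Per length of transcript, Nfkbia and Rela had the highest levels of the 10 genes and Nlrp3 the lowest. On the RPKM scale that the authors deposited, the mean level over the 19 libraries was 51.4 for Nfkbia (range 31.6 to 74.2) and 39.8 for Rela (33.8 to 49.6), and these ranges overlap. Vcam1 followed with a mean level of 12.6 RPKM (6.74 to 16.3), below every value of Rela and Nfkbia and above every value of the other 7 genes. Nfkb2 (3.51 RPKM, 2.95 to 4.63), Relb (2.66 RPKM, 1.78 to 3.64) and Nfkb1 (2.2 RPKM, 1.84 to 2.54) lay close together, with overlapping ranges for Nfkb2 and Relb and for Relb and Nfkb1. Icam1 (0.761 RPKM, 0.188 to 2.22), Tnfaip3 (0.637 RPKM, 0.342 to 0.976) and Casp1 (0.374 RPKM, 0.133 to 0.718) overlapped one another, and Icam1 also overlapped Nfkb1 and Relb. Nlrp3 had a mean level of 0.113 RPKM (0.0255 to 0.259), overlapping Casp1 and Icam1.

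Icam1 mRNA rose in KO brains at both oxygen levels, and Tnfaip3 mRNA rose in KO brains in hypoxia. Nfkbia and Vcam1 mRNA fell in KO brains in hypoxia, and both of these calls were lost under several alternatives. The NF-kB subunits Nfkb1, Nfkb2, Rela and Relb did not pass in either KO comparison, nor did Nlrp3 and Casp1. In normoxia 1 of the 10 genes was called at an edgeR adjusted p under 0.05, higher in KO, where 12.2% of all tested genes were called, 6.9% higher and 5.27% lower, so the count is near the background. In hypoxia 4 of the 10 were called, 2 higher and 2 lower, where 19.7% of all tested genes were called, 10.4% higher and 9.37% lower. The median log2 fold change of the 10 genes was 0.01 in normoxia and 0.14 in hypoxia, against -0.01 and 0.01 over all tested genes. KO and control libraries did not overlap in normoxia for 3 genes, higher in KO for Icam1 and Casp1 and lower for Nfkbia. Over all tested genes, 9.82% were without overlap and higher, and 9.84% without overlap and lower, in that comparison. In hypoxia the groups did not overlap for Icam1 and Tnfaip3, both higher in KO, against 5.37% of all tested genes.

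**Figure D1:**
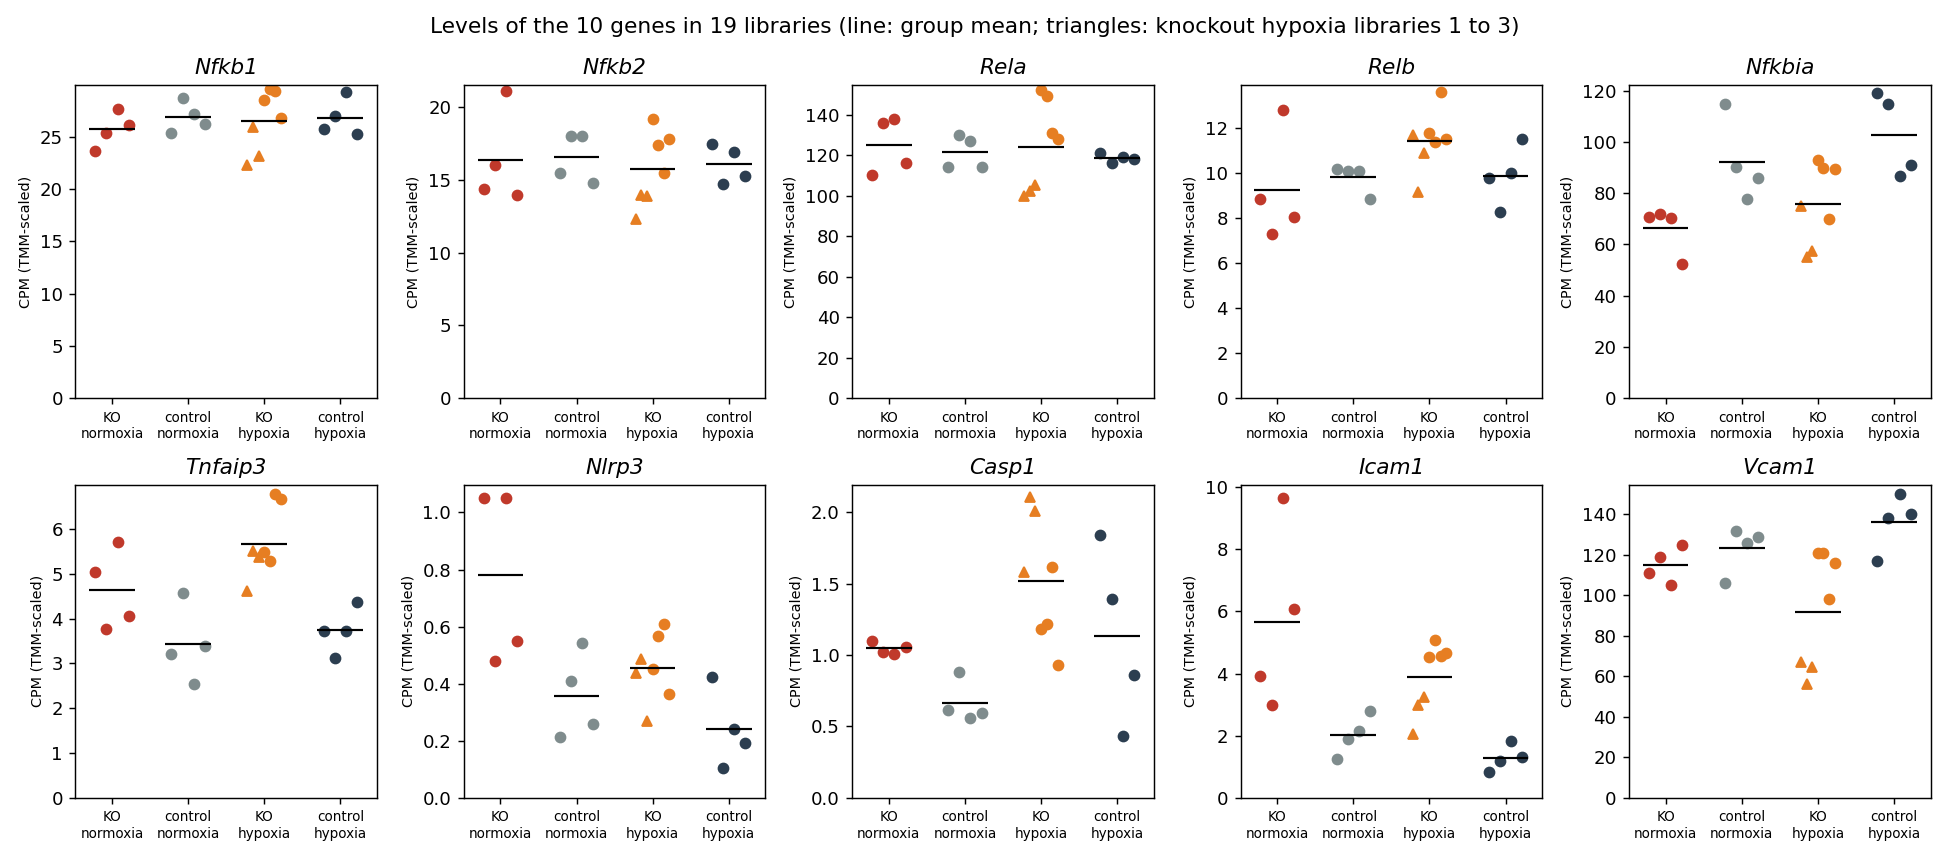
TMM-scaled CPM (linear axes from 0) of each of the 10 genes in the 19 libraries, by group, with a line at the group mean and triangles for KO hypoxia libraries 1 to 3. Icam1 lay at 2.99 to 9.64 CPM in normoxic KO and at 2.04 to 5.08 CPM in hypoxic KO, above all controls at the same oxygen level, while Vcam1 was at 56 to 67.1 CPM in KO hypoxia libraries 1 to 3 and at 98.3 to 121 CPM in libraries 4 to 7.

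Among the NF-kB subunits, Rela encodes the transactivating subunit p65 of the classical pathway. Rela had 110, 136, 138 and 116 CPM in KO and 114, 130, 127 and 114 CPM in control libraries in normoxia. In hypoxia it had 100, 102, 105, 152, 149, 131 and 128 CPM in KO libraries 1 to 7, and 121, 116, 119 and 118 CPM in controls. The KO values in hypoxia fell on both sides of the controls, with libraries 1 to 3 below and libraries 4 to 7 above all 4. The log2 fold change of Rela in normoxia was 0.05 ± 0.12 (edgeR adjusted p = 0.845). In hypoxia it was 0.07 ± 0.11 (edgeR adjusted p = 0.701), with a 95% interval of -0.15 to 0.28, and 0.24 and not called without KO hypoxia libraries 1, 2 and 3 (adjusted p = 0.0943).

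Nfkb1 encodes p105, the precursor of p50, the usual partner of p65. It ranged over 23.6 to 27.7 CPM in KO and 25.4 to 28.7 CPM in control libraries in normoxia, and over 22.3 to 29.6 CPM in KO and 25.3 to 29.3 CPM in control libraries in hypoxia. Its log2 fold changes were -0.06 ± 0.09 in normoxia and -0.02 ± 0.08 in hypoxia (edgeR adjusted p = 0.684 and 0.912), with 95% intervals of -0.24 to 0.11 and -0.17 to 0.14. Its SE was the smallest of the 10 genes in both comparisons, and both intervals exclude changes of the size measured for Icam1.

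Nfkb2, the precursor of p52, and Relb, its partner in the alternative NF-kB pathway, also overlapped between groups. Nfkb2 averaged 16.4 ± 3.27 CPM in KO and 16.6 ± 1.7 CPM in control libraries in normoxia (SD, n = 4 each), and 15.7 ± 2.49 CPM in KO (n = 7) and 16.1 ± 1.31 CPM in control libraries (n = 4) in hypoxia. Its log2 fold changes were -0.02 ± 0.14 and -0.04 ± 0.13 (edgeR adjusted p = 0.952 and 0.87). Relb had 8.83, 7.28, 12.8 and 8.05 CPM in KO and 10.2, 10.1, 10.1 and 8.85 CPM in control libraries in normoxia. In hypoxia Relb had 11.7, 9.17, 10.9, 11.8, 11.4, 13.6 and 11.5 CPM in KO, and 9.79, 8.26, 10 and 11.5 CPM in control libraries. In normoxia KO library 3 was the highest and the other 3 KO libraries were under the lowest control. The log2 fold change of Relb in normoxia was -0.09 ± 0.15 (edgeR adjusted p = 0.746), and in hypoxia 0.21 ± 0.13 (edgeR adjusted p = 0.278).

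Nfkbia encodes IkBα, which binds NF-kB dimers and is resynthesised after their activation. In normoxia it had 70.9, 72, 70.4 and 52.2 CPM in KO libraries, against 115, 90.1, 77.9 and 86.1 CPM in control libraries. Every KO library was lower than every control, and the log2 fold change of -0.48 ± 0.17 did not pass (edgeR adjusted p = 0.0768). It was -0.45 and called (adjusted p = 0.0403) without KO hypoxia libraries 1, 2 and 3, which enter the same fit. In hypoxia Nfkbia had 75.2, 55.2, 57.5, 93.2, 90, 69.8 and 89.3 CPM in KO libraries 1 to 7, against 119, 115, 86.6 and 90.9 CPM in control libraries 3 to 6. KO libraries 4, 5 and 7 lay within the range of the controls, and the other 4 KO libraries lay below all of them.

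The log2 fold change of Nfkbia in hypoxia was -0.44 ± 0.15 (edgeR adjusted p = 0.0471), a fall that passed narrowly and was called in 8 of 29 alternatives. With the replicate number as a block, a fit that rests on libraries 3 to 6 of both groups, it was -0.42 and not called (adjusted p = 0.136). It was -0.27 and not called (adjusted p = 0.273) without KO hypoxia libraries 1, 2 and 3. Leaving out 1 library ended the call in 14 of 19 cases. These were KO hypoxia 1, 2, 3 or 6, any 1 of the hypoxic controls, KO normoxia 1, 2 or 3, and control normoxia 2, 3 or 4, with log2 fold changes of -0.51 to -0.36.

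Tnfaip3 encodes A20, an enzyme that edits ubiquitin chains and shuts off signalling upstream of NF-kB. In normoxia it had 5.05, 3.77, 5.71 and 4.07 CPM in KO libraries, against 3.2, 4.58, 2.55 and 3.39 CPM in control libraries. Control library 2 lay inside the range of KO, and the log2 fold change of 0.44 ± 0.18 did not pass (edgeR adjusted p = 0.107). Without that control library it was 0.61 and called (adjusted p = 0.0409). In hypoxia Tnfaip3 had 4.62, 5.51, 5.37, 5.48, 5.28, 6.78 and 6.68 CPM in KO libraries, against 3.72, 3.12, 3.73 and 4.38 CPM in control libraries. All 7 KO libraries were above all 4 controls, and the rise was 0.60 ± 0.16 on the log2 scale, a fold change of 1.52 (edgeR adjusted p = 0.0139). It was 0.69 and called without KO hypoxia libraries 1, 2 and 3, and 0.52 and not called without control hypoxia library 4 (adjusted p = 0.0578).

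The estimates for the inhibitors Tnfaip3 and Nfkbia stood on opposite sides of zero in both KO comparisons. The ratio of their levels, Tnfaip3 RPKM per 1000 of Nfkbia RPKM, was 11.7 to 18.1 (median 16.6) in KO against 6.2 to 11.3 (median 8.03) in control libraries in normoxia. In hypoxia it was 13.1 to 22.2 (median 16.7) in KO against 6.05 to 10.7 (median 8.3) in control libraries. The ratios of KO and control libraries did not overlap at either oxygen level, which is given as a description without a test.

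Nlrp3 encodes the sensor of the best-studied inflammasome, the protein complex that activates caspase-1, and is expressed in brain mainly by microglia. It had 6 to 58 raw counts per library, so its levels are imprecise. In normoxia it had 1.05, 0.478, 1.05 and 0.549 CPM in KO libraries, against 0.214, 0.411, 0.543 and 0.26 CPM in control libraries. KO libraries 1 and 3 were above all controls, while library 2 lay within their range and library 4 next to its upper end. In hypoxia Nlrp3 had 0.439, 0.488, 0.268, 0.451, 0.567, 0.609 and 0.362 CPM in KO libraries, against 0.424, 0.105, 0.242 and 0.193 CPM in control libraries. Control hypoxia library 3 lay inside the range of KO, and the other 3 controls were below all KO libraries.

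The log2 fold change of Nlrp3 in normoxia was 1.13 ± 0.39 (edgeR adjusted p = 0.0618), and in hypoxia 0.90 ± 0.37 (edgeR adjusted p = 0.0895), and neither passed. DESeq2 called it in normoxia (1.15, adjusted p = 0.0277) and limma-voom in hypoxia (1.07, adjusted p = 0.0494). It was also called in normoxia without KO normoxia library 2 (1.31, adjusted p = 0.0334), and without control hypoxia library 3 in normoxia (1.13, adjusted p = 0.0468) and in hypoxia (1.32, adjusted p = 0.0309).

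Casp1 encodes caspase-1, which matures interleukin-1β and interleukin-18 and cuts gasdermin D. It had 25 to 147 raw counts per library. In normoxia it had 1.1, 1.02, 1.01 and 1.06 CPM in KO libraries, against 0.612, 0.884, 0.562 and 0.594 CPM in control libraries. The groups did not overlap, but the log2 fold change of 0.66 ± 0.34 did not pass (edgeR adjusted p = 0.208). In hypoxia Casp1 had 1.58, 2.11, 2.01, 1.18, 1.22, 1.62 and 0.933 CPM in KO libraries, against 1.84, 1.39, 0.432 and 0.862 CPM in control libraries. The groups overlapped, with controls both below and among the KO values, and the log2 fold change was 0.43 ± 0.29 (edgeR adjusted p = 0.309). It was 0.12 (adjusted p = 0.867) without KO hypoxia libraries 1, 2 and 3.

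Microglial markers moved in the same direction as both inflammasome genes, and so did markers of several other cell types. Of 9 microglial markers, 6 were called higher in KO in each comparison, and their summed level was 69.6 to 139 CPM in KO against 52.5 to 62.9 CPM in control libraries in normoxia, and 73.9 to 96.5 CPM in KO against 43.9 to 60.1 CPM in control libraries in hypoxia. None of the 9 was at 0 in any group, and their part in the levels of Nlrp3 and Casp1 was not tested. Of 9 neuronal markers, 2 were called higher in KO in normoxia and 5 in hypoxia, and of 5 erythroid markers all 5 in each. Of 7 oligodendrocyte markers 0 and 2 were called higher, and of 5 choroid plexus markers 0 in each. Of 6 fibroblast markers 2 were called higher in normoxia and 1 lower in hypoxia. Of 6 border macrophage markers 2 were called higher in normoxia and 0 in either direction in hypoxia. The border macrophage markers summed to 20.7 to 45.1 CPM in KO against 10.7 to 19.6 CPM in control libraries in normoxia. In hypoxia they summed to 10.2 to 16.9 CPM in KO against 9.41 to 17 CPM in control libraries. The part of these cell types was not tested either. In these bulk libraries, a change in the number of cells of a type cannot be told apart from a change of RNA per cell. If astrocyte ribosomes were purified, neither can be told apart from a change in the RNA of other cells carried over.

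Icam1 encodes the endothelial and glial receptor for the leukocyte integrins of the Itgb2 family. In normoxia it had 3.93, 2.99, 9.64 and 6.08 CPM in KO libraries, against 1.24, 1.89, 2.15 and 2.78 CPM in control libraries. Every KO library was above every control, with KO library 3 the highest. Icam1 averaged 5.66 ± 2.95 CPM in KO and 2.02 ± 0.639 CPM in control libraries (SD, n = 4 each), a log2 fold change of 1.49 ± 0.35 (edgeR adjusted p = 0.0121). Without KO normoxia library 3 it was 1.10 and not called (adjusted p = 0.0561), and it was called in the other 28 of 29 alternatives.

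In hypoxia Icam1 had 2.04, 2.99, 3.26, 4.54, 5.08, 4.55 and 4.66 CPM in KO libraries 1 to 7, against 0.816, 1.19, 1.83 and 1.3 CPM in control libraries 3 to 6. All 7 KO libraries were above all 4 controls, with KO libraries 1 to 3 the lowest of the 7. The rise was 1.59 ± 0.33 on the log2 scale, a fold change of 3.01 (edgeR adjusted p = 0.0037), and it was called in all 29 alternatives, with log2 fold changes of 1.42 to 1.87. Leaving out KO hypoxia libraries 1, 2 and 3 gave 1.87 (adjusted p = 0.00233). Of the 10 genes, Icam1 was the only one called at both oxygen levels, and its KO effect differed between them by 0.10 ± 0.47 on the log2 scale (edgeR adjusted p = 0.966), with an interval of -0.82 to 1.02.

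Endothelial markers were also higher in KO in normoxia. Of 8 endothelial markers, 5 were called higher in KO in normoxia and 1 in hypoxia. Their summed level was 31.6 to 113 CPM in KO against 13 to 32.7 CPM in control libraries in normoxia, and 20.1 to 33.7 CPM in KO against 17.4 to 35.6 CPM in control libraries in hypoxia. The groups overlapped at both oxygen levels, in normoxia only at the ends of their ranges. None of the 8 was at 0 in any group. The microglial sums above did not overlap at either oxygen level. Of 7 markers of mural cells, the pericytes and smooth muscle of vessels, 6 were called higher in KO in normoxia and 4 in hypoxia. They summed to 84.8 to 104 CPM in KO against 47.9 to 76.9 CPM in control libraries in normoxia, and to 54.4 to 70.5 CPM in KO against 43.4 to 67.6 CPM in control libraries in hypoxia, where the groups overlapped. None was at 0 in any group. The part of these cells, and of the other cell types given above, in the level of Icam1 was not tested.

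Vcam1 encodes the receptor for the integrin α4β1, which inflamed endothelium displays and which astrocytes also express. In normoxia it had 111, 119, 105 and 125 CPM in KO libraries, against 106, 132, 126 and 129 CPM in control libraries. The groups overlapped, and the log2 fold change was -0.10 ± 0.21 (edgeR adjusted p = 0.805), with an interval of -0.50 to 0.31. In hypoxia Vcam1 had 67.1, 56, 64.5, 121, 121, 98.3 and 116 CPM in KO libraries 1 to 7, against 117, 138, 150 and 140 CPM in control libraries 3 to 6. KO libraries 1 to 3 were below all other libraries, and KO libraries 4 and 5 lay within the range of controls.

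The fall of Vcam1 in hypoxia was -0.57 ± 0.18 on the log2 scale (edgeR adjusted p = 0.0346). Without KO hypoxia libraries 1, 2 and 3 it was -0.26 and not called (adjusted p = 0.0869). The summed astrocyte markers moved in the same way, with 25701 to 29009 CPM in KO hypoxia libraries 1 to 3, 32445 to 39065 CPM in KO hypoxia libraries 4 to 7 and 33409 to 39336 CPM in hypoxic controls, and their part in the result was not tested. The call was also lost without KO hypoxia library 1, 2 or 3 (-0.50, -0.47 and -0.50) and without control hypoxia library 4, 5 or 6 (-0.56, -0.52 and -0.55). With the replicate number as a block, a fit that rests on libraries 3 to 6 of both groups, it was -0.47 and called (adjusted p = 0.0372).

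In hypoxia the adhesion receptors Icam1 and Vcam1 were called in opposite directions, the fall of Vcam1 only with KO hypoxia libraries 1, 2 and 3. The level of Icam1 per 1000 of Vcam1, both in RPKM, was 51.1 to 186 (median 85.3) in KO against 23.8 to 44 (median 32) in control libraries in normoxia, and 61.7 to 108 (median 85.6) in KO against 14.2 to 24.9 (median 18.2) in control libraries in hypoxia. The ratio did not overlap between KO and control libraries at either oxygen level. KO hypoxia libraries 1 to 3 held both the lowest and the highest ratio of their group, where for Vcam1 alone all 3 lay below the others.

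**Figure D2:**
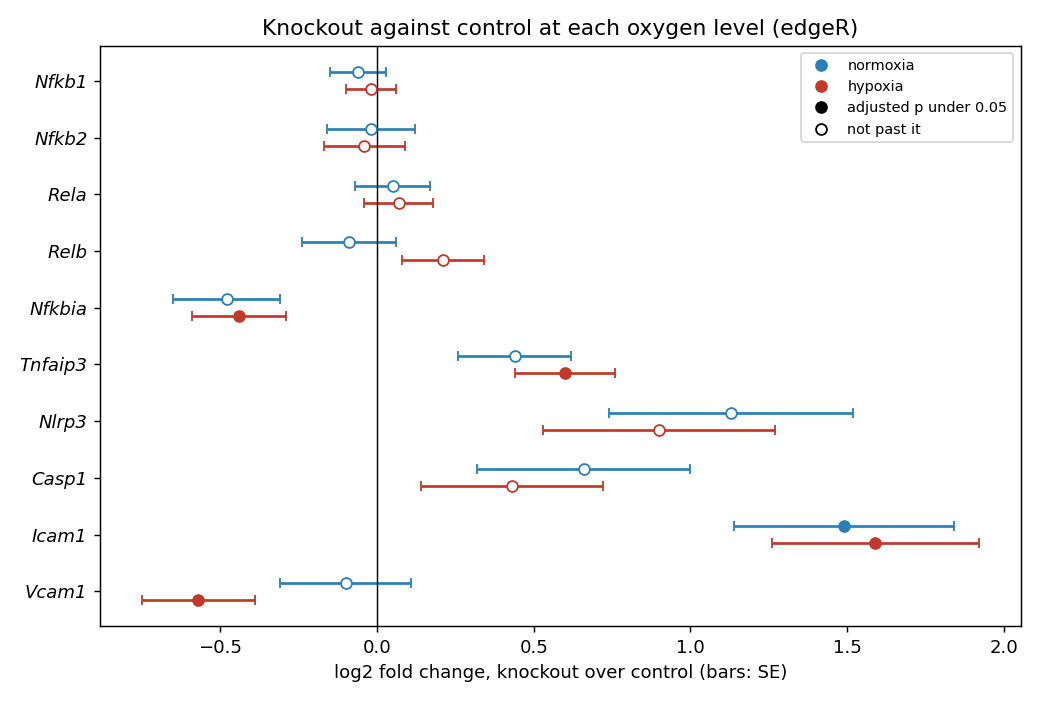
Log2 fold change, KO over control, of the 10 genes in normoxia (blue) and hypoxia (red), with bars of 1 SE and filled points where the edgeR adjusted p was under 0.05. Icam1 stands furthest to the right among filled points, at 1.49 and 1.59, and Nfkb1 lies nearest to 0 in hypoxia, at -0.02.

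**Figure D3:**
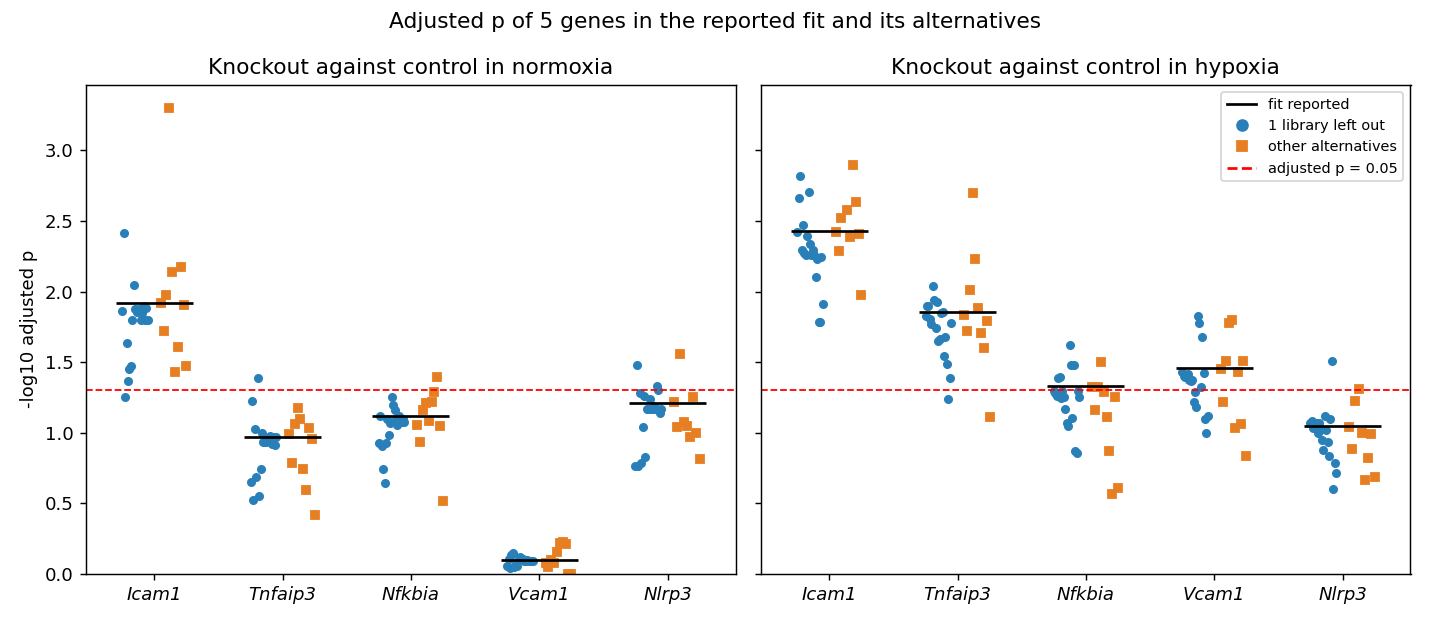
Minus log10 of the adjusted p (vertical axis) of 5 genes for KO against control in normoxia (left) and hypoxia (right), with the reported fit as a black line, fits without 1 library as blue points and the other alternatives as orange squares. In hypoxia all points of Icam1 lie above the dashed line at an adjusted p of 0.05, while those of Nfkbia and Vcam1 lie on both sides of it.

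Between hypoxia and normoxia none of the 10 genes passed the threshold in either genotype. In KO brains 0 of 10 were called between hypoxia and normoxia by edgeR, DESeq2 or limma-voom, where edgeR called 12.5% of all tested genes, and 2 of the 10, Relb and Nlrp3, had an unadjusted p under 0.05. Relb averaged 11.4 ± 1.31 CPM in hypoxic KO (SD, n = 7) and 9.24 ± 2.45 CPM in normoxic KO (n = 4), a log2 fold change of 0.31 ± 0.13 (edgeR adjusted p = 0.136). Without KO normoxia library 3 it was 0.51 and called (adjusted p = 0.0153). Nlrp3 averaged 0.455 ± 0.117 CPM in hypoxic KO and 0.78 ± 0.309 CPM in normoxic KO, a log2 fold change of -0.77 ± 0.33 (edgeR adjusted p = 0.128). The largest other estimates were -0.55 ± 0.30 for Icam1, 0.54 ± 0.29 for Casp1 and -0.32 ± 0.18 for Vcam1, with edgeR adjusted p of 0.243, 0.239 and 0.254.

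In control brains 0 of 10 genes were called between hypoxia and normoxia by edgeR, DESeq2 or limma-voom, where edgeR called 0.0856% of all tested genes, and Casp1 alone had an unadjusted p under 0.05. Casp1 averaged 1.13 ± 0.614 CPM in hypoxic and 0.663 ± 0.149 CPM in normoxic controls (SD, n = 4 each), a log2 fold change of 0.77 ± 0.34 (edgeR adjusted p = 0.512). Icam1 averaged 1.29 ± 0.42 CPM in hypoxic and 2.02 ± 0.639 CPM in normoxic controls, a log2 fold change of -0.65 ± 0.36 (edgeR adjusted p = 0.645). The KO effect in hypoxia minus that in normoxia was called for 0 of 10 genes by the same 3 tools, where edgeR called 0.0101% of all tested genes, and none had an unadjusted p under 0.05. The largest such difference was that of Vcam1, -0.47 ± 0.27 (edgeR adjusted p = 0.546), with an interval of -1.01 to 0.07.

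Across the 19 libraries, the genes whose log2 levels followed each of the 4 called genes most closely were named by Pearson's r, as a description, since the libraries share their groups and depth. Icam1 was followed by Gpnmb (r = 0.941), Ggta1 (0.938) and Ephx1 (0.938). Vcam1 was followed by Fads1 (0.969), Bmpr1a (0.967) and Olfml1 (0.967). Tnfaip3 was followed by Kctd17 (0.901), Gm13293 (0.900) and Eno1 (0.894), and Nfkbia by Idh1 (0.905), Gm21926 (0.863) and Gadd45g (0.860).

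The other genes of these pathways were taken from 5 lists of related genes that hold none of the 10. In the signalling list, which holds adaptors, kinases and inhibitors of the pathway, 3 of 31 tested genes rose and 2 fell in KO brains in normoxia, and 2 rose and 2 fell in hypoxia (1 fell with the replicate block). Without KO hypoxia libraries 1, 2 and 3, 4 rose in hypoxia, with Ikbkb (0.20, adjusted p = 0.0381) and the inhibitor gene Nfkbie (0.49, adjusted p = 0.0454) added, and 1 fell. In the fit of all libraries that is 16.1% and 12.9% of the list, against 12.2% and 19.7% of all tested genes. Traf1, an adaptor of the TNF receptors and itself an NF-kB target, rose to 6.14 CPM in KO against 1.89 CPM in control libraries in normoxia (1.70 ± 0.21, edgeR adjusted p = 0.000167), and to 8.16 CPM against 1.95 CPM in hypoxia (2.06 ± 0.20, edgeR adjusted p = 4.59e-06). Bcl3, a nuclear IkB protein that partners p50 and p52, rose by 2.72 ± 0.55 in normoxia and 2.0 ± 0.49 in hypoxia on the log2 scale (edgeR adjusted p = 0.00488 and 0.0101). Bcl3 ranged from 0.819 to 8.09 CPM in KO against 0.204 to 0.88 CPM in control libraries in normoxia, so the groups overlapped. Its log2 fold change there was as low as 1.74 when 1 library was left out. Traf1 and Bcl3 were called in all 29 alternatives at both oxygen levels. Irak2, a kinase of the interleukin-1 and Toll-like receptors, fell to 78.4 CPM in KO against 128 CPM in control libraries in hypoxia (-0.71 ± 0.11, edgeR adjusted p = 0.000474; called in all 29), and by 0.44 ± 0.13 in normoxia (edgeR adjusted p = 0.0341), a value outside the rule for named genes. Ikbkb, the kinase that marks IkBα, rose by 0.24 ± 0.07 in normoxia (edgeR adjusted p = 0.0277), a call lost without KO normoxia 1 or 4 or control normoxia 1, 3 or 4 (0.21 to 0.24). Irak1 fell by 0.25 ± 0.07 in normoxia and by 0.19 ± 0.06 in hypoxia (edgeR adjusted p = 0.0313 and 0.0481). The call of Irak1 was lost without 6 of 19 single libraries in normoxia (-0.27 to -0.22) and without 15 of 19 in hypoxia (-0.20 to -0.16), where it was -0.09 and not called without KO hypoxia libraries 1, 2 and 3 and -0.17 and not called with the replicate block (adjusted p = 0.182).

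Of 28 ligands and receptors that activate NF-kB, 21 were tested, and the ligands Tnf, Il1a and Il6 had too few counts to be tested. In KO brains 4 rose in normoxia (7 by DESeq2), and 2 rose and 1 fell in hypoxia (2 rose with the replicate block), 19% and 14.3% of those tested. Tnfrsf1b, TNF receptor 2, rose to 1.6 CPM in KO against 0.515 CPM in control libraries in normoxia (1.63 ± 0.29, edgeR adjusted p = 0.00179), and to 1.11 CPM against 0.531 CPM in hypoxia (1.06 ± 0.26, edgeR adjusted p = 0.00968), and was called in all 29 alternatives at both oxygen levels. Tlr9, a sensor of DNA, rose by 1.39 ± 0.34 in normoxia (edgeR adjusted p = 0.0154; 1.07 and not called without KO normoxia library 3), at only 0.597 CPM in KO against 0.227 CPM in control libraries. The other rises in normoxia were those of Tnfrsf12a (0.98 ± 0.31) and Tnfrsf1a (0.60 ± 0.19), with edgeR adjusted p of 0.0436 and 0.0454. Tnfrsf12a lost its call without 9 of 19 single libraries (0.69 to 1.09) and Tnfrsf1a without 12 (0.40 to 0.68). In hypoxia Tnfrsf11a, the receptor RANK, rose by 1.10 ± 0.32 (edgeR adjusted p = 0.0226; 1.15 and 0.91 and not called without control hypoxia library 4 or 6, and 0.94 and not called without KO hypoxia libraries 1, 2 and 3), and Tnfrsf13c fell by 1.14 ± 0.37 (edgeR adjusted p = 0.0374; not called without KO hypoxia library 1, 2, 3 or 4 or control hypoxia library 4 or 6, -1.10 to -1.01). Tnfrsf13c was at -1.08 and not called with the replicate block (adjusted p = 0.123), and at -0.86 and not called without KO hypoxia libraries 1, 2 and 3 (adjusted p = 0.239), where 1 gene of the list rose and 0 fell.

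Of 20 further NF-kB targets 13 were tested, and 2 rose in KO brains in normoxia, while 4 rose and 1 fell in hypoxia, 15.4% and 38.5% of those tested. The chemokine gene Cxcl5 rose to 1.67 CPM in KO against 0.399 CPM in control libraries in normoxia (2.05 ± 0.50, edgeR adjusted p = 0.0143), and to 2.29 CPM against 0.691 CPM in hypoxia (1.73 ± 0.44, edgeR adjusted p = 0.0118). Lcn2, the iron-carrier lipocalin 2, rested on 1 library in normoxia: it ranged from 0.136 to 6.01 CPM in KO, and its log2 fold change of 4.29 ± 1.2 (edgeR adjusted p = 0.0274) was 2.27 and not called without KO normoxia library 4 (adjusted p = 0.168), and not called without control normoxia library 1, 2 or 3 (3.83, 4.24 and 4.39). In hypoxia the other rises were Cxcl1 (2.34 ± 0.61, edgeR adjusted p = 0.0134), at only 0.203 CPM in KO against 0.0386 CPM in control libraries, Irf1 (0.58 ± 0.17, edgeR adjusted p = 0.0256; 0.50, 0.54 and 0.55 and not called without control hypoxia library 3, 4 or 5) and, outside the rule for named genes, Plaur (1.36 ± 0.44, edgeR adjusted p = 0.0381; 0.71 and not called without KO hypoxia libraries 1, 2 and 3). Without those 3 libraries, as with the replicate block, 3 of the 13 rose and 1 fell. Bcl2l1, which encodes the survival protein Bcl-xL, fell by 0.43 ± 0.12 (edgeR adjusted p = 0.0212; -0.36 and -0.31 and not called without control hypoxia library 3 or 4).

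Of 24 further inflammasome and pyroptosis genes 18 were tested. In KO brains 1 fell in normoxia, and 2 rose and 1 fell in hypoxia (1 rose and 1 fell with the replicate block), 5.56% and 16.7% of those tested. Il18, the precursor of a caspase-1 product, fell to 54.6 CPM in KO against 90.4 CPM in control libraries in hypoxia (-0.73 ± 0.13, edgeR adjusted p = 0.000967), and this call held in all 29 alternatives. In normoxia Il18 was at 55.2 CPM in KO against 77 CPM in control libraries (-0.48 ± 0.15, edgeR adjusted p = 0.0398), and the call was lost without KO normoxia library 1, 3 or 4 or any 1 normoxic control (-0.51 to -0.40). The rises of Gsdme (0.37 ± 0.12, edgeR adjusted p = 0.0441) and Panx1 (0.52 ± 0.18, edgeR adjusted p = 0.0494) in hypoxia were lost without 11 and 13 of 19 single libraries (0.32 to 0.37 and 0.38 to 0.54), and without KO hypoxia libraries 1, 2 and 3 (0.42 and 0.30). With the replicate block Gsdme was at 0.34 and not called (adjusted p = 0.0549).

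Of 25 adhesion genes 20 were tested. In KO brains 7 rose in normoxia, and 8 rose and 3 fell in hypoxia, 35% and 55% of those tested, against 12.2% and 19.7% of all tested genes. Without KO hypoxia libraries 1, 2 and 3 2 of the 20 genes, Itgb2 and Mcam, were called higher in hypoxia and 0 lower, 10% of the list against 8.55% of all tested genes, which is near the background. When 1 library was left out, the rises in hypoxia numbered 3 to 9 and the falls 0 to 3. The rises were 4, 4 and 5 without KO hypoxia library 2, 3 or 6 and 3, 3 and 4 without control hypoxia library 4, 5 or 6, and with the replicate block 6 rose and 1 fell. The list holds 2 of the endothelial markers, Pecam1 and Cdh5. The endothelial, mural and microglial marker levels given above moved with these counts, and their part in them was not tested. The integrin subunits Itgb2 and Itgam, whose dimer on microglia and leukocytes binds the Icam1 protein, rose in both comparisons. Itgb2 was at 2.15 CPM in KO against 0.518 CPM in control libraries in normoxia (2.04 ± 0.39, edgeR adjusted p = 0.00329), and at 1.64 CPM against 0.576 CPM in hypoxia (1.51 ± 0.35, edgeR adjusted p = 0.00726). Itgam was at 1.19 CPM in KO against 0.287 CPM in control libraries in normoxia (2.03 ± 0.41, edgeR adjusted p = 0.00488), and at 1.03 CPM against 0.342 CPM in hypoxia (1.59 ± 0.37, edgeR adjusted p = 0.0072; 1.32 and not called without KO hypoxia libraries 1, 2 and 3). The endothelial junction gene Esam rose by 2.15 ± 0.37 and Pecam1 by 2.31 ± 0.50 in normoxia (edgeR adjusted p = 0.00149 and 0.00749), and the endothelial and mural gene Mcam by 1.29 ± 0.24 in hypoxia (edgeR adjusted p = 0.0016). Alcam, Jam3 and Cd99l2 fell in hypoxia, the last 2 named outside the rule for named genes (-0.27 and -0.23 and not called without KO hypoxia libraries 1, 2 and 3). The fall of Alcam was 0.54 ± 0.14 on the log2 scale (edgeR adjusted p = 0.0117; -0.43 and not called without control hypoxia library 5, and -0.52 and not called without KO hypoxia libraries 1, 2 and 3).

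Markers of blood leukocytes had low summed levels, and the number of leukocytes was not measured. Of 11 such markers 3 were tested, and of these 1 was called higher and 1 lower in KO in each KO comparison. The 11 summed to 0.834 to 2.69 CPM in KO against 0.429 to 0.835 CPM in control libraries in normoxia, and to 0.763 to 1.3 CPM in KO against 0.422 to 1.03 CPM in control libraries in hypoxia. The neutrophil marker Ly6g was at 0 in all groups. Selectins E and P, encoded by Sele and Selp, had too few counts to be tested.

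Between hypoxia and normoxia in KO brains, 11 of the 103 tested genes of the 5 lists were called by edgeR, all lower. That is 10.7%, against 12.5% of all tested genes in either direction and 7.77% lower, so the count is near the background. Leaving out KO hypoxia libraries 1, 2 and 3 gave 5 lower and 3 higher, the signalling genes Tab2, Traf2 and Traf3. In that fit 3.81% of all tested genes were lower and 3.38% higher. With the replicate block 0 were called, and 1 of all tested genes. At an unadjusted p under 0.05 there were 29, of which 7 were higher, and DESeq2 called 14, all lower. The adhesion list had 7 lower, such as Cd99l2 (-0.63 ± 0.11, edgeR adjusted p = 0.00325) and the endothelial cadherin Cdh5 (-1.17 ± 0.22, edgeR adjusted p = 0.00492). The receptor genes Tlr4 (-0.61 ± 0.13) and Tnfrsf1a (-0.64 ± 0.17; -0.43 and not called without KO normoxia library 3) fell with edgeR adjusted p of 0.00818 and 0.019, and so did P2rx7, the ATP-gated channel that triggers the Nlrp3 inflammasome (-0.60 ± 0.15, edgeR adjusted p = 0.0163; -0.52 and not called without KO normoxia library 2), and Map3k14, the kinase of the alternative NF-kB pathway (-0.39 ± 0.11, edgeR adjusted p = 0.0305; not called without KO normoxia library 2, 3 or 4 or KO hypoxia library 1, 2 or 3, -0.40 to -0.29). Without KO hypoxia libraries 1, 2 and 3, Tnfrsf1a (-0.44), P2rx7 (-0.42) and Map3k14 (-0.29) were not called. In control brains edgeR and DESeq2 called 0 of the 103 genes, with 5 at an unadjusted p under 0.05. For the difference between the KO effects edgeR called 0 and DESeq2 1, with 11 at an unadjusted p under 0.05.

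**Figure D4:**
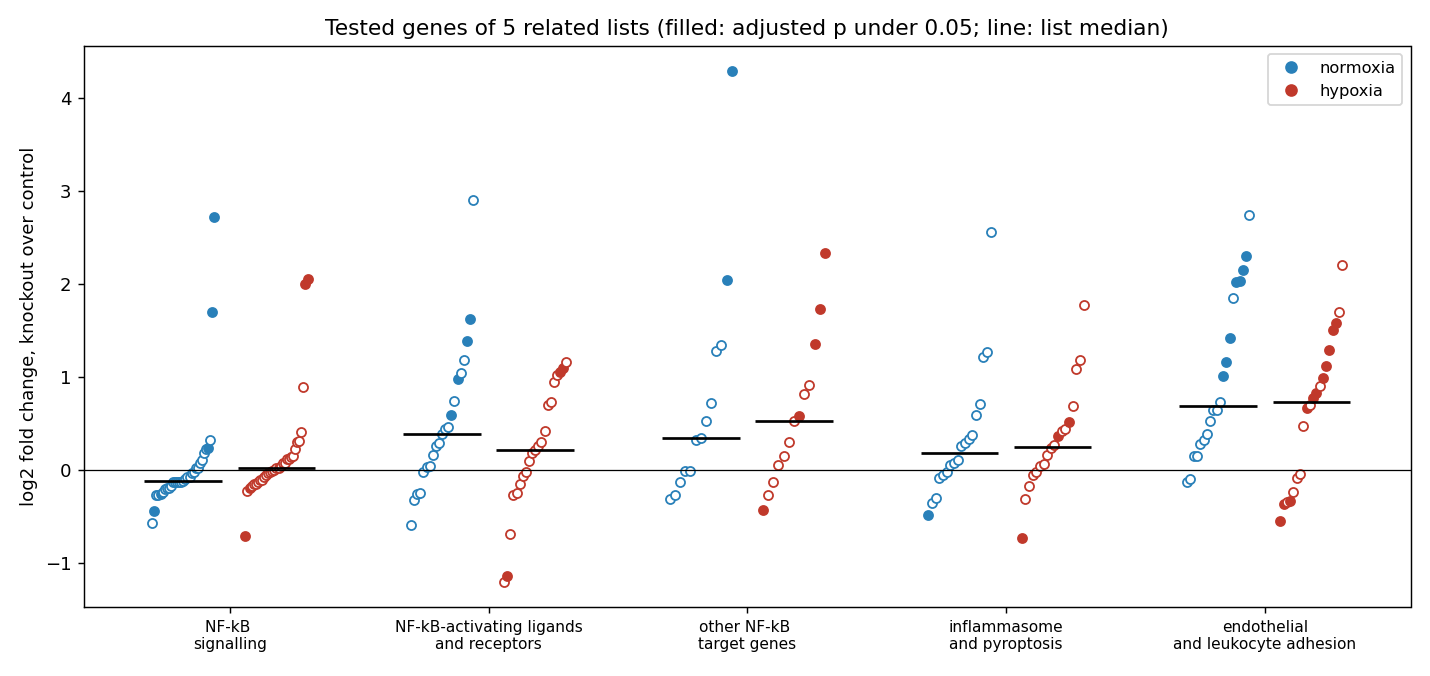
Log2 fold change, KO over control, of every tested gene in the 5 related lists (none of the 10 genes is among them), in normoxia (blue) and hypoxia (red), with filled points where the edgeR adjusted p was under 0.05 and a line at the median of each list. The median of the adhesion list lies at 0.69 in normoxia and 0.74 in hypoxia, that of the signalling list at -0.11 and 0.02.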

How the data were processed

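Polyadenylated RNA was sequenced after Illumina Stranded mRNA Prep from brains with an RNA integrity number above 8, per the labels' protocols. The texts disagree on the input: the design of the series speaks of tagged ribosomes purified from astrocytes, the sample protocols of whole brain homogenised in TRIzol. The values used are whole-number gene counts as deposited for 19 of 21 labelled samples (replicates 1 and 2 of the hypoxic controls are not analysed) and the authors' RPKM values. The submitters' processing notes name HISAT2, edgeR and build GRCm39. The counting method and its strand setting are not given in the sources used here. Reads of overlapping or antisense genes therefore cannot be told apart. Among counts of 2 to 21, 65.9% were even, as when both mates of a pair are counted, so precision is lower than the totals of 45399320 to 65261791 counts imply.

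Symbols matched 52083 of 55416 gene IDs. With filterByExpr 19854 genes were kept, scaled by TMM and tested by edgeR 4.0.16 (quasi-likelihood, robust) in R 4.3.3 with limma 3.58.1, in 1 fit of all 19 libraries. The 5 contrasts compared KO with control in normoxia and in hypoxia, hypoxia with normoxia in KO and in controls, and the KO effects with each other. Genes are called at an adjusted p (Benjamini-Hochberg, 19854 genes) under 0.05. Log2 fold changes are given ± SE, with normal 95% intervals. RPKM were used to compare levels between genes, without a test. The fit was tested on simulated data.

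The 10 genes, the 5 pathway lists and the marker lists were chosen with earlier results of these data known. The rule for named genes took all 10 genes, Pdcd10, up to 4 called genes per list by adjusted p in each KO comparison and up to 2 in the other contrasts, and the 3 most correlated genes (log2 CPM, prior count 2) of each called member. Promoter sequences are from RefSeq (GRCm38.p6), a build other than that of the files.

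Replicate numbers were checked by the correlation of same-numbered libraries' deviations from group means. For KO against control in hypoxia the 4 shared numbers gave 0.116 to 0.268, all above 0.1. The reported fit has no replicate block in any comparison, so its p-values are unpaired, and the block entered only as an alternative. Differently numbered libraries were not compared in this way, so these values do not show a pairing, and the labels do not state one. Each other comparison had at least 1 pair at or below 0.1. The closest replicates, KO hypoxia 4 and 5, had a per-gene chi-square with a median of 1.76, where sampling alone gives 0.455, and were kept as 2 libraries. The alternatives were RLE scaling, no filter (32305 genes), a filter of at least 1 CPM in 4 libraries (15757 genes), DESeq2 1.42.0, limma-voom with sample weights, the 2 groups alone, a replicate block, leaving out each library, leaving out KO hypoxia libraries 1, 2 and 3, Y-linked RNA (Ddx3y under 10 CPM) as a covariate, and a minimum fold change of 1.2. In a block fit of 2 groups, a library whose number is found in only 1 of them does not inform the comparison. For KO against control in hypoxia the block fit therefore rests on numbers 3 to 6. Between hypoxia and normoxia the block fit rests on numbers 1 to 4 in KO and on 3 and 4 in controls.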

Additional observations from a re-analysis of the deposited data

Results flagged for a closer look

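Of 40 groups of CPM values (10 genes in 4 groups), 3 held a library that stood apart from the others of its group. Chance alone marks about 1 in 20 such groups, with the limit set for each group size. Nfkbia was 52.2 CPM in KO normoxia library 4 and 70.4 to 72 CPM in the other 3 KO normoxia libraries. This library lies on the side away from the controls, and without it the groups still do not overlap. Casp1 was 0.884 CPM in control normoxia library 2 and 0.562 to 0.612 CPM in the other 3 control normoxia libraries, all below the KO libraries. Relb was 8.85 CPM in control normoxia library 4 and 10.1 to 10.2 CPM in the other 3 control normoxia libraries.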

How the results depend on the processing

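The count of the 10 genes called was 1 for KO against control in normoxia; it was 2 with DESeq2 and without KO hypoxia libraries 1, 2 and 3 (16.9% and 17.1% of all tested genes called), and 0 to 2 when 1 library was left out, 0 being without KO normoxia library 3. For KO against control in hypoxia the count was 4; it was 2 without a filter on low counts, with the 2 groups alone and without KO hypoxia libraries 1, 2 and 3 (9.09%, 14.9% and 8.55% of all tested genes), 1 with a minimum fold change (5.9%), and 1 to 4 when 1 library was left out, 1 being without control hypoxia library 4. For hypoxia against normoxia the count in KO was 0, and 0 to 1 when 1 library was left out. In controls it was 0, and 1 with the replicate block, Nfkbia at 0.52 (adjusted p = 0.0335). That block fit rests on libraries 3 and 4 of each group, and the fit of all libraries gave Nfkbia at 0.16 (edgeR adjusted p = 0.867). The replicate block ended the call of Nfkbia in hypoxia (-0.42, adjusted p = 0.136) and, these calls of Nfkbia apart, changed no call of the 10 genes. Of the other named genes, in comparisons other than KO against control in hypoxia, the block ended the calls of Ikbkb, Irak1, Tnfrsf12a, Cxcl5 and Itgb2 in normoxia (adjusted p = 0.0554 to 0.157). It also ended those of Tlr4, Tnfrsf1a, P2rx7, Map3k14, Cd99l2 and Cdh5 between hypoxia and normoxia in KO (0.0561 to 0.151). Over all tested genes, KO against control in normoxia had 1563 called with the block and 2002 with the 2 groups alone. Between hypoxia and normoxia in KO, 1 was called with the block and 945 with the 2 groups alone. The cause of these changes was not tested.

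Direction turned only where log2 fold changes were near 0 and not called. Without KO hypoxia libraries 1, 2 and 3, Nfkb2 turned to 0.00 in normoxia and 0.11 in hypoxia, Nfkb1 to 0.08 in hypoxia, and, between hypoxia and normoxia, Nfkb2 to 0.09 and Rela to 0.16 in KO and Nfkb1 to 0.03 in controls; for the difference of KO effects Nfkb2 turned to 0.10. With the replicate block Nfkb1 turned to 0.03 and Nfkb2 to 0.02 for KO against control in hypoxia, Nfkb1 to -0.05 in KO and Relb to -0.06 in controls between hypoxia and normoxia, and Nfkb2 to 0.03 and Nfkbia to -0.05 for the difference. Nfkb1 in hypoxia was 0.01 with the stricter filter and 0.00 with limma-voom, and in controls between hypoxia and normoxia 0.01 with RLE scaling, DESeq2 and limma-voom and 0.00 with the 2 groups alone and the Y-linked covariate. For the difference, Nlrp3 was 0.14 and Casp1 0.01 with limma-voom, and Icam1 -0.15 with the Y-linked covariate.

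When 1 library was left out, the ranges that crossed 0 were as follows. For KO against control they were -0.16 to 0.05 for Nfkb2, 0.00 to 0.10 for Rela and -0.29 to 0.01 for Relb in normoxia, and -0.04 to 0.03 for Nfkb1 and -0.09 to 0.02 for Nfkb2 in hypoxia. Between hypoxia and normoxia they were -0.13 to 0.08 for Nfkb2 and -0.07 to 0.04 for Rela in KO, and -0.05 to 0.03 for Nfkb1 and -0.07 to 0.09 for Relb in controls. For the difference they were -0.09 to 0.13 for Nfkb2, -0.03 to 0.07 for Rela, -0.09 to 0.11 for Nfkbia, -0.01 to 0.28 for Tnfaip3, -0.51 to 0.19 for Nlrp3, -0.50 to 0.11 for Casp1 and -0.11 to 0.49 for Icam1. The levels of Nlrp3 and Casp1 rest on 6 to 58 and 25 to 147 counts per library, and differences smaller than their intervals were not detectable with these libraries. The shares of counting error and of spread between libraries in those intervals were not separated. A stricter filter removed Nlrp3, so it has no value there. Of the 103 tested genes of the 5 related lists, 19 were called for KO against control in normoxia and 30 without KO hypoxia libraries 1, 2 and 3, and 26 and 13 in hypoxia. In normoxia that is 18.4% and 29.1%, against 12.2% and 17.1% of all tested genes. In hypoxia it is 25.2% and 12.6%, against 19.7% and 8.55% of all tested genes, so the shares over all genes moved in the same directions. When 1 library was left out, rises and falls in normoxia numbered 2 to 3 and 0 to 3 in the signalling list, 1 to 5 and 0 for ligands and receptors, 1 to 3 and 0 for further targets, 0 to 2 and 0 to 2 for inflammasome genes and 6 to 9 and 0 for adhesion genes; in hypoxia, adhesion genes apart, they numbered 2 to 3 and 1 to 3, 1 to 2 and 0 to 3, 2 to 4 and 0 to 2, and 0 to 3 and 1 to 2, in the same order.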
